A study of Rattus norvegicus with 127 samples.

Results

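Delayed saline day 3 is a group of 9 samples of rat pubocaudalis, a muscle of the pelvic floor, taken 3 days after a delayed injection of saline into muscle that had received a simulated birth injury (SBI). It was set against SBI day 31, a group of 6 samples taken 31 days after the same injury with no injection. These 15 of the 127 samples were chosen by the condition in their labels, and all 134 probes of the panel were compared. The rats were Sprague Dawley, and both groups carry the injury, so the comparison does not set injured against uninjured muscle. The labels do not give the length of the delay, and day 31 was taken as the matching time. The injection and any difference in time since injury can therefore not be told apart here. Whether each sample is a different rat is not stated in the labels, and a p-value here reflects sample-to-sample spread, which may be technical in part.

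Whole muscle RNA was measured with a custom nCounter codeset, in which barcoded probes are counted one by one, for genes of inflammation, muscle formation and breakdown, matrix, blood vessels and the neuromuscular junction. Differences are log2(signal + 1), saline minus SBI day 31, ± SE from a limma model of all 18 groups of the study, which understates changes of low genes. A gene was called at a Benjamini-Hochberg adjusted p under 0.05 over the 134 genes. Because the scale of the deposited signal is not described, each difference was also taken after centring every sample on its panel median. In whole muscle, fewer cells of a type and less RNA per cell cannot be told apart.

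Injured muscle is known to recruit neutrophils and then macrophages, to activate satellite cells, which are its stem cells, and to lay down a provisional matrix that is later remodelled. Adam12, a membrane metalloproteinase, and Tnc, the matrix glycoprotein tenascin C, are both known as genes of regenerating muscle and of activated stromal cells, and are low in resting adult muscle.

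The groups had like depth. The recovered total count ran from 926265 to 1770662 in saline samples and from 1173234 to 1791711 in SBI day 31 samples (exact permutation test, two-sided, p = 0.5758, adjusted p = 0.7965 over 4 technical measures). The panel median averaged 10.14 ± 0.22 in saline samples and 10.23 ± 0.20 in SBI day 31 samples on the log2 scale (SD, n = 9 and 6; exact p = 0.4372). One library stood apart: SBI day 31 replicate 1 was the highest of its group in 69 of the 134 genes and, by Dixon's test, stood apart as the highest in 14 genes and as the lowest in 4. For a gene or list median named in the text on saline against SBI day 31, the value without it is given where leaving it out ended a call, turned the direction or moved the difference by over 1.5 times. The labelled tissue was checked against 7 markers of adult muscle fibre, which were present in every sample. Their summed signal ran from 939200 to 1241000 in saline samples and from 547400 to 1187000 in SBI day 31 samples, of which the lowest was replicate 1 and the next was 818300.

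Muscle 3 days after delayed saline differed from injured muscle without injection in few of the genes measured. Adam12 was higher after saline, and Il33, an alarmin cytokine released by damaged and stromal cells, and App, the amyloid precursor protein gene, which is also expressed at the neuromuscular junction, were lower. These 3 genes were called, which is 2.24% of the 134 tested, 1 of them higher (0.746%) and 2 lower (1.49%). The same 3 genes were called after centring. At an unadjusted p under 0.05 there were 19 genes (14.2%), of which Adam12 and Tnc were higher and 17 were lower, and after centring there were 13 (9.7%). For no gene were the 2 groups free of overlap. Over the whole panel 99 of 134 genes had negative differences on the deposited scale and 79 after centring.

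Adam12 signal in the 9 saline samples had a lowest value of 115, a median of 367.9 and a highest of 800.1. In SBI day 31 samples the lowest was 44.45, the median 52.85 and the highest 478.7. All 9 saline samples lay above the SBI day 31 median, and 2 lay above its highest sample. Of the SBI day 31 samples 4 lay between 44.45 and 54.96, and the other two, replicates 6 and 1, stood at 164.7 and 478.7. The difference was 1.93 ± 0.40, or 3.82-fold, with a 95% interval of 1.14 to 2.72 (limma adjusted p = 0.000583). It was 2.02 ± 0.37 after centring, and 2.42 ± 0.40 without replicate 1 of SBI day 31. An exact permutation test of Adam12 alone, chosen after the gene was called, gave p = 0.006793 (two-sided). Adam12 was called in each of the 15 fits that left out 1 sample, but not when the spread was estimated from the 2 groups alone (adjusted p = 0.0641).

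Il33 had a lowest signal of 2414, a median of 2728 and a highest of 3929 in saline samples, against 3056, 4325 and 6527 in SBI day 31 samples. All 9 saline samples lay below the SBI day 31 median, and 6 lay below its lowest sample. The difference was -0.66 ± 0.18 (limma adjusted p = 0.02405), and -0.57 ± 0.16 after centring. Without SBI day 31 replicate 1 it was -0.56 ± 0.19 and was no longer called (adjusted p = 0.1522). The call was also lost without SBI day 31 replicate 3 or 6 or saline replicate 1, in the fit of the 2 groups alone (adjusted p = 0.0641) and on the scale of the authors' fold changes (adjusted p = 0.3757).

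App had a lowest signal of 7514, a median of 9024 and a highest of 11900 in saline samples, against 11020, 11690 and 19020 in SBI day 31 samples. All but 1 of the saline samples lay below every SBI day 31 sample. The difference was -0.49 ± 0.14 (limma adjusted p = 0.02959), and -0.40 ± 0.10 after centring (adjusted p = 0.009853). Without SBI day 31 replicate 1, whose App signal was the highest of the group, it was -0.38 ± 0.14 and was not called (adjusted p = 0.2348). The call was also lost without SBI day 31 replicate 6 or saline replicate 1, 7 or 9, and in the fit of the 2 groups alone (adjusted p = 0.0821). With SBI days 31 and 35 pooled App differed by -0.34 ± 0.12 and was not called (adjusted p = 0.1073), nor was it on the scale of the authors' fold changes (adjusted p = 0.7124).

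**Figure D1:**
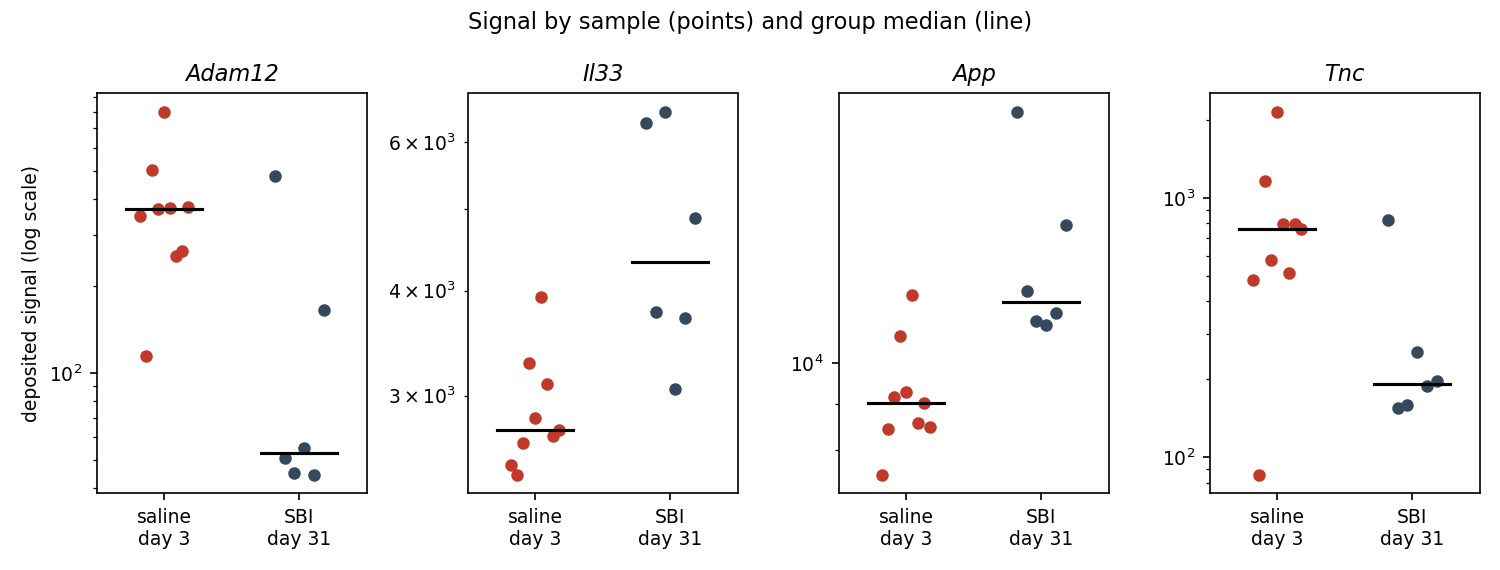
Deposited signal (log axis) of Adam12, Il33, App and Tnc in each of the 9 delayed saline day 3 samples and the 6 SBI day 31 samples, with a line at the group median. Adam12 medians stand at 367.9 and 52.85, and the groups overlap in all 4 genes.

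Tnc followed Adam12 in direction and did not pass the test. Its signal had a lowest value of 85.59, a median of 759.5 and a highest of 2157 in saline samples, against 155, 192.5 and 820.8 in SBI day 31 samples. Replicate 2 of saline stood below all of the SBI day 31 samples, while the other 8 stood above the SBI day 31 median. The difference was 1.38 ± 0.53 (limma adjusted p = 0.2404), and 1.47 ± 0.48 after centring (adjusted p = 0.07924). Without saline replicate 2, Tnc was called at 1.74 ± 0.52 (adjusted p = 0.04289). It was also called with SBI days 31 and 35 pooled (1.72 ± 0.45, adjusted p = 0.009205) and with array weights (1.80 ± 0.37, adjusted p = 0.0002806). Over all 28 fits its adjusted p ran from 0.0002806 to 0.4554.

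The next genes by p were of growth signalling. Igf1r, the receptor of insulin-like growth factor 1, differed by -0.47 ± 0.14 (limma adjusted p = 0.05221). Its signal ran from 311.9 to 628.3 in saline samples and from 494.2 to 645.9 in SBI day 31 samples, and 8 of 9 saline samples lay below every SBI day 31 sample. It was called without saline replicate 2 (adjusted p = 0.04421) or saline replicate 8 (adjusted p = 0.01351), in the fit of 6 groups (adjusted p = 0.03322) and with array weights (adjusted p = 0.0007626). Prkaa1, a catalytic subunit of the energy sensor AMPK, differed by -0.27 ± 0.10 (adjusted p = 0.1334). Its probe takes the name Igf1 when names are matched with all of the authors' comparisons, whereas the 3 called genes keep their names. In the match used here, the name Prkaa1 and its probe were each other's closest. The same held for Adam12 and Il33 but not for App. All 11 genes of the IGF1, AKT and mTOR list had negative differences on the deposited scale and 7 did after centring, and none was called. Of all 134 genes, 99 had negative differences on the deposited scale and 79 after centring. The median of the list was -0.15, the same as the median of all 134 genes (-0.15). Without SBI day 31 replicate 1 these medians were -0.23 and -0.16.

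**Figure D2:**
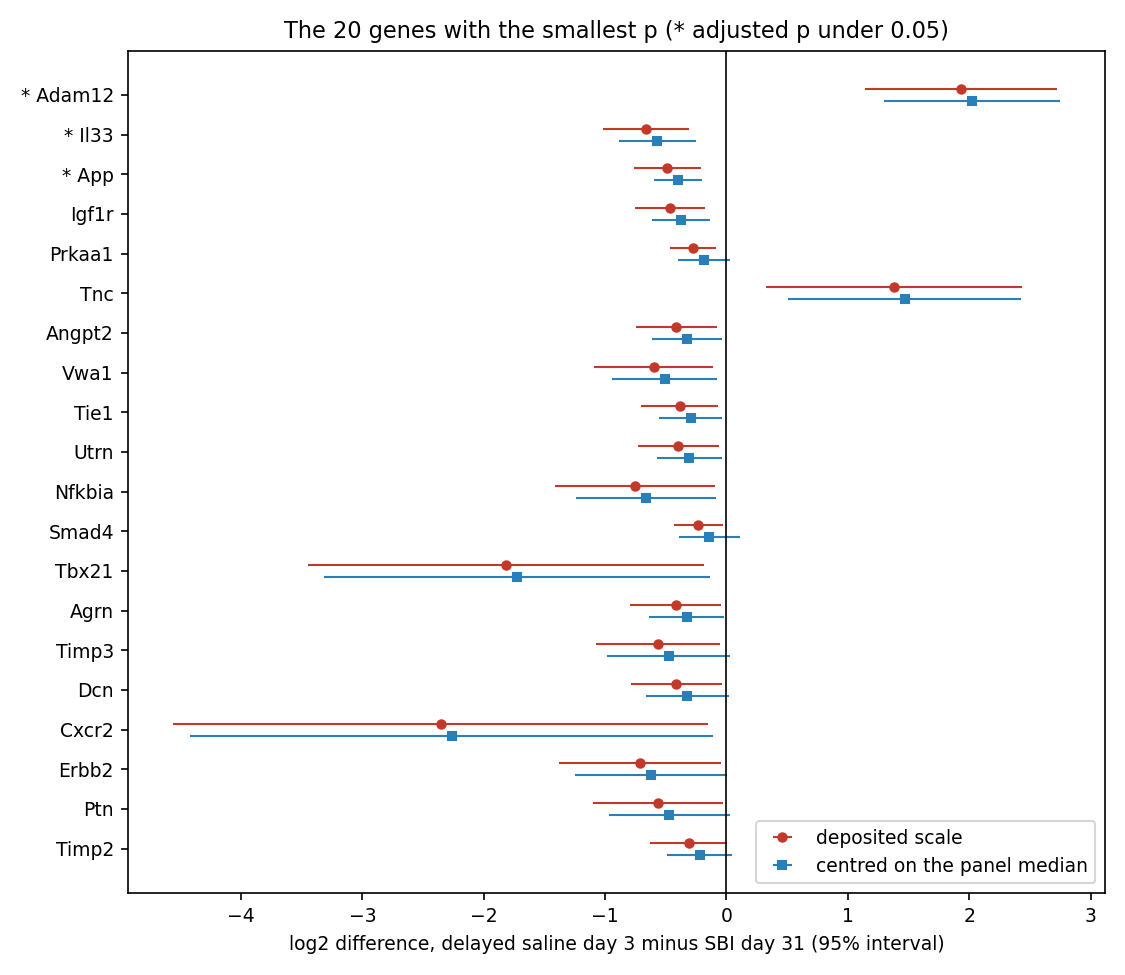
Log2 difference, delayed saline day 3 minus SBI day 31, with its 95% interval, for the 20 genes with the smallest p on the deposited scale (circles) and after centring (squares); asterisks mark the 3 genes called. Adam12 and Tnc lie right of 0 and the other 18 lie left of it.

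Of the 20 gene lists described here, none had more than 1 gene called. Among matrix genes, the metalloproteinase list held 7 genes, of which Adam12 alone was called, and its median was -0.17, or 0.06 without SBI day 31 replicate 1. Mmp12, the macrophage elastase, ran from 0.1 to 1619 in saline samples and from 0.1 to 1873 in SBI day 31 samples. Each highest value was that of 1 library, saline replicate 6 and SBI day 31 replicate 1, and the other samples reached 18.04 in saline samples and 148.9 in SBI day 31 samples. Mmp12 differed by -1.58, and by -0.39 ± 1.51 without SBI day 31 replicate 1, and was not called. The inhibitors of metalloproteinases Timp3 (-0.57 ± 0.26), Timp4 (-0.34 ± 0.34) and Timp2 (-0.31 ± 0.16) had negative differences and none of the list's 4 genes was called. Their median was -0.33, against -0.15 for all genes. Without SBI day 31 replicate 1, Timp2 differed by -0.18 ± 0.17.

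The collagen genes Col1a1 and Col3a1, which encode the main fibrillar collagens, differed by 0.52 ± 0.41 and 0.39 ± 0.32 and were not called. Col1a1 ran from 17460 to 48030 in saline samples with a median of 29390, and from 8518 to 114600 in SBI day 31 samples with a median of 14850. All 9 saline samples lay above the SBI day 31 median in both collagens, and the highest SBI day 31 value of both was that of replicate 1. Without that library Col1a1 differed by 1.00 ± 0.41 (limma adjusted p = 0.2383) and Col3a1 by 0.80 ± 0.31 (adjusted p = 0.2353), and neither was called. With array weights both were called, Col1a1 at 0.98 (adjusted p = 0.005008) and Col3a1 at 0.77 (adjusted p = 0.005264). That fit called 32 genes of all kinds, 8 higher, such as Il6, Ccl2 and Myh3, and 24 lower, such as Timp3 and Nfkbia. Dcn, the collagen-binding proteoglycan decorin, differed by -0.41 ± 0.19 and was not called, but was with array weights (-0.48, adjusted p = 0.005008). In the list of matricellular genes and hyaluronan synthases, Has1, a hyaluronan synthase, differed by 0.81 ± 0.50 and Thbs1, thrombospondin 1, by -0.47 ± 0.50, or -0.23 ± 0.52 without SBI day 31 replicate 1, with none of 5 called.

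The inflammatory genes did not pass the test apart from Il33. The neutrophil list, 4 genes, had a median of -1.47. Cxcr2, a neutrophil chemokine receptor, stood at the floor of 0.1 in 5 of 9 saline samples and 1 of 6 SBI day 31 samples, with medians of 0.1 in saline samples and 18.63 in SBI day 31 samples (-2.36 ± 1.11, limma adjusted p = 0.2729). Cxcl5, a neutrophil chemokine, had medians of 8.477 in saline samples and 67.98 in SBI day 31 samples (adjusted p = 0.4145). The rest of the list was nearer to no difference: Cxcl1 at -0.58 ± 1.01 and Mmp8 at -0.13 ± 0.72. Without SBI day 31 replicate 1, Mmp8 was at -0.23 ± 0.76. Mmp8 had a higher median in saline samples (42.16) than in SBI day 31 samples (37.75). Of the 5 monocyte and T cell chemokine genes and receptors 4 had positive differences, led by Ccl2 (0.74 ± 0.61, and 1.33 ± 0.63 without SBI day 31 replicate 1), and none was called. Il6 differed by 1.04 ± 0.62 and Nos2, inducible nitric oxide synthase, by -1.04 ± 1.14. Nfkbia, the inhibitor of NF-kappaB, had medians of 4103 in saline samples and 6642 in SBI day 31 samples (-0.75 ± 0.33, adjusted p = 0.2588). In 8 of 9 saline samples it lay below every SBI day 31 sample. With the spread estimated from the 2 groups alone its SE was 0.18 (limma adjusted p = 0.0641). It was called in the fit of 6 groups (adjusted p = 0.02842) and with array weights (adjusted p = 0.02056).

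No marker gene of the cell types represented on the panel was called in either direction. The panel held none of the listed markers of adipocytes, smooth muscle, or nerve and Schwann cells. The summed signals below are a description and were not tested. The summed signal of 3 macrophage markers ran from 775.4 to 2286 in saline samples and from 628.8 to 9650 in SBI day 31 samples, where 9650 was replicate 1 and the next was 1455. That of 4 lymphocyte markers ran from 193 to 507.2 in saline samples and from 349.7 to 505.3 in SBI day 31 samples. Tbx21, the transcription factor of type 1 T cells, was at the floor in 1 saline sample and differed by -1.82 ± 0.82 (limma adjusted p = 0.2588). The 4 fibroblast markers summed to between 103500 and 181400 in saline samples and between 66810 and 366600 in SBI day 31 samples, where 366600 was replicate 1 and the next was 186100. The part of these cell types in the Adam12, Il33 and App differences was not tested.

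**Figure D3:**
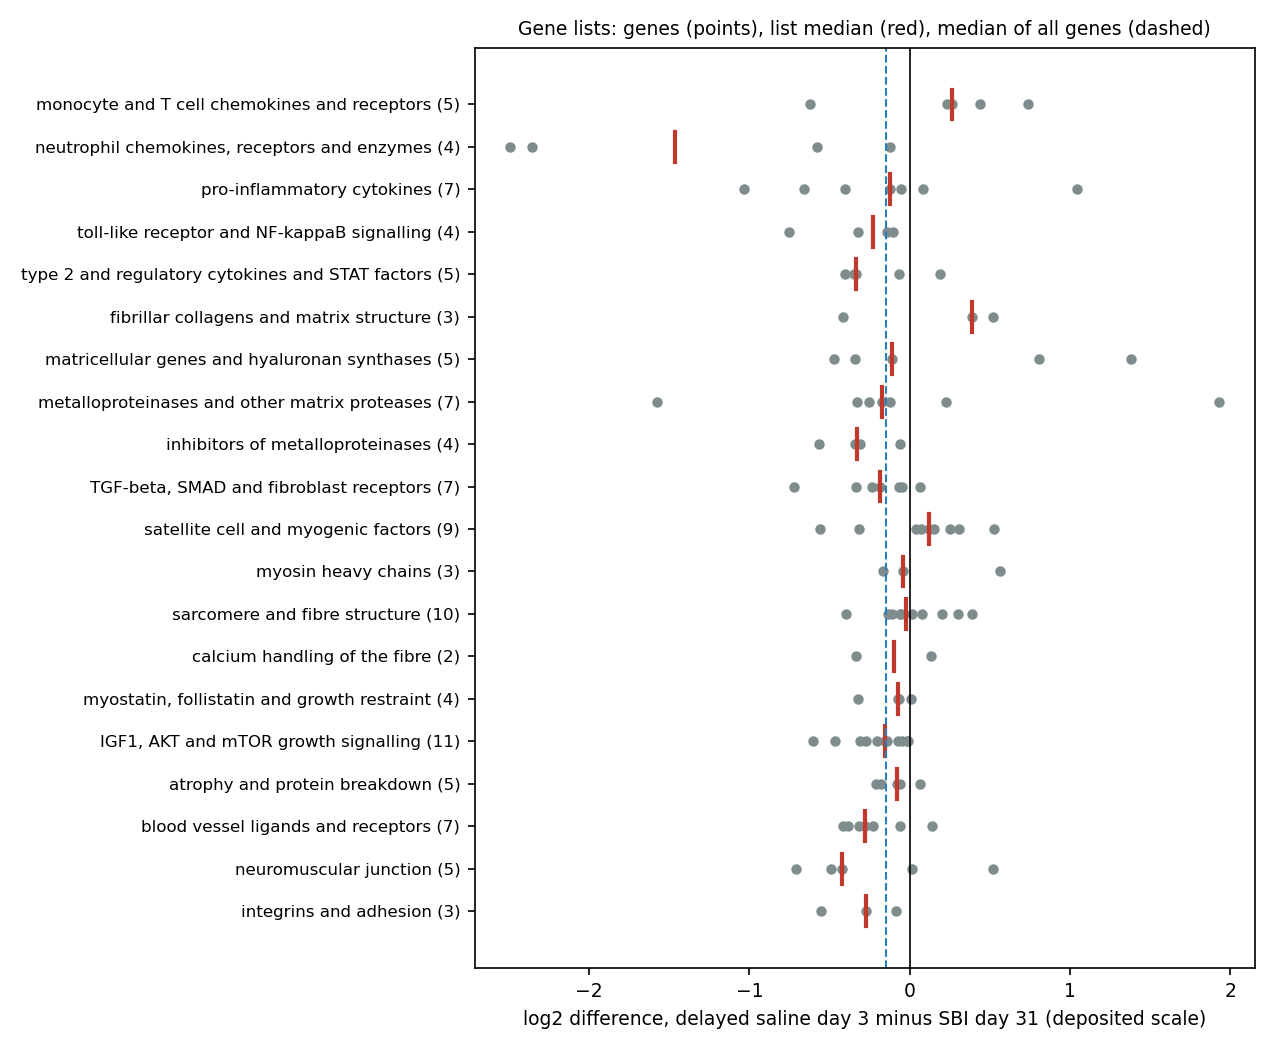
Log2 difference, delayed saline day 3 minus SBI day 31, of each gene (points) in the 20 gene lists, with the list median (bar) and the median of all 134 genes (dashed, -0.15). The list medians lie between -0.42 and 0.39, except that of the neutrophil list, at -1.47.

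No gene of muscle formation was called. In the list of satellite cell and myogenic factors 7 of 9 genes had positive differences on both scales, with a median of 0.12. Without SBI day 31 replicate 1, 5 of 9 had, and the median was 0.02. Myod1, a transcription factor that commits cells to muscle, had medians of 1327 in saline samples and 994 in SBI day 31 samples (0.53 ± 0.29, limma adjusted p = 0.3714). Myf5, another such factor, differed by 0.25 ± 0.24, and Ptn, the growth factor pleiotrophin, by -0.56 ± 0.27. Myh3, the embryonic myosin of newly formed fibres, ran from 386.4 to 5085 in saline samples and from 252.6 to 3379 in SBI day 31 samples. It differed by 0.57 ± 0.68, was called with array weights (1.42 ± 0.49, limma adjusted p = 0.02285), and was at 0.94 ± 0.72 without SBI day 31 replicate 1. The adult myosins Myh1 and Myh7 differed by -0.04 ± 0.46 and -0.16 ± 0.57, and without that library by -0.16 ± 0.49 and -0.43 ± 0.60. Utrn, which encodes utrophin, differed by -0.40 ± 0.17, and Acta1, skeletal actin, by 0.39 ± 0.43, or 0.25 ± 0.46 without it.

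Blood vessel genes had negative differences in 6 of 7, and in 5 of 7 after centring, against 99 and 79 of all 134 genes. None was called, and their median was -0.28, against -0.15 for all genes. Angpt2, a ligand that loosens vessels, differed by -0.41 ± 0.17, Tie1, an endothelial receptor, by -0.38 ± 0.16 (-0.23 ± 0.16 without SBI day 31 replicate 1), and Flt1, a VEGF receptor, by -0.28 ± 0.17. At the neuromuscular junction, App was 1 of 5 genes called. Erbb2, a neuregulin receptor, differed by -0.71 ± 0.34, Agrn, agrin, by -0.42 ± 0.19, and Musk, the receptor kinase through which agrin acts, by 0.52 ± 0.41. Across the whole panel, the 95% interval lay within 1 log2 unit either way for 79 of 134 genes on the deposited scale and 85 after centring, so a change of 2-fold or more was outside the interval for these genes.

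The authors' deposited table of saline against SBI lists 20 genes, all of which had the same direction here. It concerns the same 2 groups of samples, so the shared direction is not independent evidence. In that table only Adam12 had a q-value under 0.05 (0.02), with a log2 fold change of 1.6. Of the other genes called here, Il33 was listed with a q-value of 0.098 and App was not listed. Their fold changes lie a median of 0.179 above the log2 ratios of mean deposited signal, so they are on another scale.

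Adam12 was then followed across the study, as a description, on the deposited scale without centring. The panel median (log2) averaged 10.14 in delayed saline day 3, 10.33 in SBI day 3, 10.95 in immediate saline day 3 and 8.46 in SBI day 84. These levels therefore also hold whole-panel differences between groups. The Adam12 median was 2885 on SBI day 3, 1258 on day 7, 314.2 on day 10, 52.85 on day 31 and 79.34 on day 35, and 154.4 in uninjured muscle. The 3 uninjured samples ran from 109 to 315.1, all above the SBI day 31 median. That range overlaps those of delayed saline day 3 (115 to 800.1) and SBI day 31 (44.45 to 478.7). Delayed saline day 3 (367.9), delayed SKM day 3 (355.5; SKM is a hydrogel made from muscle matrix) and SBI day 1 (370) had adjacent medians with overlapping ranges. Delayed SKM day 3 shares the SBI day 31 samples as its reference, so its values are only set beside these. Immediate saline day 3 had a median of 3074, with its lowest sample at 2540, above every delayed saline day 3 sample.

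**Figure D4:**
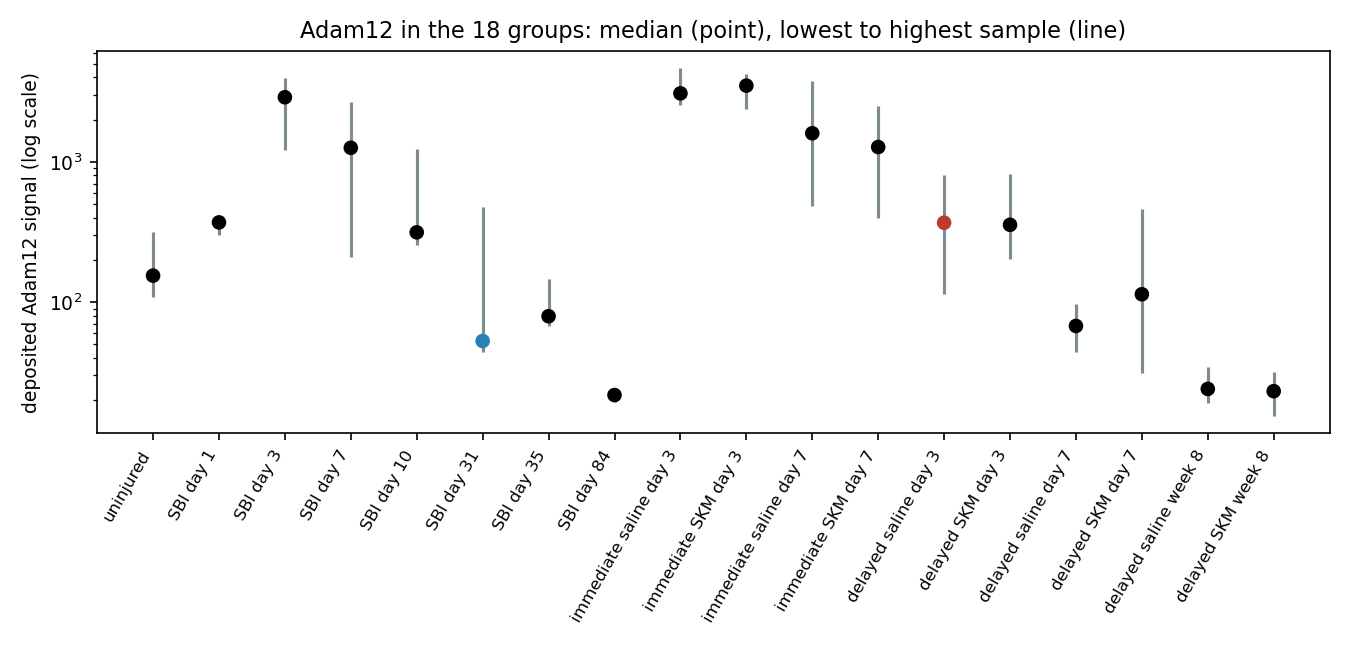
Deposited Adam12 signal (log axis) in the 18 groups, with the median (point) and the lowest to highest sample (line); delayed saline day 3 is red and SBI day 31 blue. The delayed saline day 3 median of 367.9 lies near that of SBI day 1 (370) and far below that of immediate saline day 3 (3074). Signals are not centred, and the panel median (log2) averaged from 8.45 to 10.95 over the groups.

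In the delayed saline arm Adam12 was lower at day 7 than at day 3. On the deposited scale it had a median of 67.61 at day 7, with a highest sample of 97.48. At day 3 the median was 367.9 and the lowest sample 115. The panel median (log2) averaged 9.51 at day 7 and 10.14 at day 3. Overlap of these 2 groups was not examined after centring or in the other genes. The Adam12 difference was -2.37 ± 0.35 (limma adjusted p = 7.861e-08), and -1.73 ± 0.32 after centring (adjusted p = 5.041e-05). The panel as a whole was lower at day 7: 82 genes (61.2%) were called on the deposited scale, all of them lower. With each sample centred, Adam12 was the 1 gene called (0.746%). Between SBI day 35 and SBI day 31 no gene was called by limma on either scale, with 8 genes at an unadjusted p under 0.05 on the deposited scale and 9 after centring. Adam12 differed there by 0.01 ± 0.44.

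The saline difference was tested against those at other times. Against delayed day 7, whose reference was SBI day 35, the Adam12 difference was larger by 2.37 ± 0.56 on the deposited scale (limma adjusted p = 0.003093) and by 1.79 ± 0.51 after centring, where it was not called (adjusted p = 0.09924). Against immediate day 3, whose reference was SBI day 3, it was larger by 1.55 ± 0.54 (adjusted p = 0.01508) and by 2.26 ± 0.50 after centring (adjusted p = 0.002092). In immediate saline day 3 itself, Adam12 differed from SBI day 3 by 0.39 ± 0.37 and was not called. Against immediate day 3, App differed by -1.09 ± 0.19 (limma adjusted p = 2.992e-06) and by -0.37 ± 0.14 after centring (adjusted p = 0.2559). Il33 differed there by -1.05 ± 0.24 (adjusted p = 0.0003574) and by -0.33 ± 0.22 after centring (adjusted p = 0.6768). Against delayed day 7 neither was called on either scale, with App at 0.17 ± 0.20 and Il33 at 0.33 ± 0.25 on the deposited scale. In delayed saline day 7 itself, both were also called lower than in SBI day 35 on the deposited scale (App -0.66 ± 0.14, Il33 -0.99 ± 0.18). After centring App differed there by 0.01 ± 0.10 and Il33 by -0.31 ± 0.16, and neither was called. On the deposited scale 21 genes (15.7%) were called against delayed day 7 and 56 (41.8%) against immediate day 3, of which 55 (41.0%) were lower. These counts became 0 and 1 after centring, the 1 gene being Adam12.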

How the data were processed

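The labels' protocols give total RNA of pubocaudalis muscle hybridised to a custom codeset. The authors deposited a normalized signal for 134 probes in 127 samples; no source used here names their software or scaling genes. Within samples, 100.0% of values above the floor were whole multiples, within 0.05, of the value of 1 count, and the floor of 0.1 stands for a count of 0. Depth is the recovered total count; it covers counting error only. The authors also deposited log2 fold changes with p-values and q-values, with no test named.

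Probe names were matched by value to the authors' fold changes of 7 comparisons that use neither compared group, rather than of all 10 as first planned, because the saline and SBI fold changes carry an offset; 131 of 134 names were the same either way and all 133 pairs of neighbouring probes were then alphabetical. The 3 pairs of SBI samples with identical counts were counted once, which left 124 samples.

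Signals were taken as log2(value + 1) and fitted with limma 3.58.1 in R 4.3.3 (lmFit, eBayes), 1 mean per group over 18 groups, with Benjamini-Hochberg adjustment over 134 genes at 0.05. Exact permutation tests used scipy 1.17.1. The fit was also run on simulated data in which each gene had the same spread in every group, so that run could not check the shared spread. Alternatives were centring, other fits, pseudocounts, filters, weights and leaving out replicates. The genes named were the 20 smallest p, up to 4 of each list and 6 of each difference test. Members and lists were chosen with earlier results of these data known.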

Additional observations from a re-analysis of the deposited data

Results flagged for a closer look

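Among the 20 genes with the smallest p, 6 values stood apart from the rest of their group by Dixon's test, which chance flags in about 1 in 20 groups. In saline samples these were Igf1r in replicate 8, the highest at 628.3, Tbx21 in replicate 7, the lowest at 0.1, and Tnc in replicate 2, the lowest at 85.59. In SBI day 31 samples they were Nfkbia and Tnc in replicate 1, the highest at 12200 and 820.8, and Angpt2 in replicate 3, the lowest at 419.9. Over all 134 genes 15 such values were found in saline samples and 21 in SBI day 31 samples, where replicate 1 held 14 of the high ones and 4 of the low ones. On the deposited scale the saline difference was called as differing from that at delayed day 7 in 21 of 134 genes, all higher. Against immediate day 3 it was called in 56 of 134 genes, of which 55 were lower. The medians of these differences over all genes were 0.58 and -0.68. After centring, only Adam12 against immediate day 3 remained called, at 2.26.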

How the results depend on the processing

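Adam12 was called in 26 of 28 fits and its difference ran from 1.74 to 2.52; Il33 was called in 21 and App in 19 of 28. The count of 3 called genes became 0 in the fit of the 2 groups only (Adam12 adjusted p = 0.0641), 6 in the fit of 6 groups, 32 with array weights (8 higher, 24 lower), 4 with SBI days 31 and 35 pooled (Adam12 and Tnc higher, Il33 and Il15 lower) and 1 on the scale of the authors' fold changes, an alternative chosen after seeing the data. With the replicate number as a block the count was 0; the numbers did not pair the samples (6 pairs, r from -0.625 to 0.368), so the block was not used. Leaving out 1 replicate gave 1 to 5 called genes: 1 without SBI day 31 replicate 1 or 6 or saline replicate 1, and 5 without saline replicate 2. Centring moved the other counts from 21 to 0 (delayed day 7), from 56 to 1 (immediate day 3) and from 82 to 1 (day 7 against day 3); with 4 groups only the first became 46. The cause was not tested. The edgeR and DESeq2 tests first planned were not run; limma-voom on recovered counts gave 3 genes.

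None of the 3 called genes changed direction; 21 of the 80 named genes, none called, did. After centring the values were Timp1 0.030, Myh1 0.046, Eif4ebp1 0.019, Mstn 0.023, Foxo1 0.030, Ctsl 0.014, Itgb1 0.0046, Akt1 0.042 and Pdgfa 0.044. On the authors' scale they were Mmp8 0.054, Ikbkb 0.073, Myd88 0.036, Timp1 0.12, Myh7 0.014, Myh1 0.13, Eif4ebp1 0.11, Mstn 0.11, Foxo1 0.12, Ctsl 0.10, Itgb1 0.093, Akt1 0.13 and Pdgfa 0.13. With array weights they were Il1b 0.34, Myd88 0.10, Mmp14 0.069, Timp1 0.12, Jsrp1 -0.072, Grb10 -0.12 and Ctsl 0.017. With SBI days 31 and 35 pooled they were Il1b 0.078, Timp1 0.17, Jsrp1 -0.048, Grb10 -0.081 and Ctsl 0.017, and with the replicate block Myh1 was 0.025. Leaving out 1 replicate gave ranges across 0 for Ccl4 (-0.12 to 1.07), Ccr2 (-0.0070 to 0.62), Ctsl (-0.18 to 0.067), Fbxo32 (-0.39 to 0.056), Grb10 (-0.090 to 0.066), Il10ra (-0.012 to 0.70), Il1b (-0.98 to 0.31), Jsrp1 (-0.041 to 0.19), Mmp14 (-0.38 to 0.073), Mmp8 (-0.23 to 0.0072), Mstn (-0.35 to 0.13), Myd88 (-0.25 to 0.093), Myh1 (-0.16 to 0.024) and Timp1 (-0.26 to 0.27). Depth limits genes near the floor, such as Cxcr2 and Cxcl5.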

Other observations

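Among the 9 saline samples, Adam12 was set against 3 matrix genes picked after their values had been seen, on both scales, which makes 6 relations. Adam12 and Tnc had r = 0.94 (exact permutation p = 0.000984, adjusted p = 0.00331) and rho = 0.783 (exact p = 0.0172, adjusted p = 0.0344) on the deposited scale. Adam12 and Col1a1 had r = 0.892 (exact p = 0.00166, adjusted p = 0.00331) and rho = 0.833 (exact p = 0.00827, adjusted p = 0.0248). Adam12 and Col3a1 had r = 0.671 (exact p = 0.0324, adjusted p = 0.0389) and rho = 0.567 (exact p = 0.121, adjusted p = 0.121). After centring r was 0.896, 0.839 and 0.508. Without the 2 samples farthest from the Adam12 median, r on the deposited scale was 0.588, 0.623 and 0.511 over 7 samples, and after centring it was 0.57, 0.70 and 0.51.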
